A study of Danio rerio with 8 samples.

Results

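Cells store surplus fatty acids as triglyceride in lipid droplets, and the genes described here build, coat and empty those droplets, as measured in zebrafish macrophages. Triglyceride is made from diacylglycerol by DGAT enzymes, the droplet surface is covered by perilipins, and stored fat is released stepwise: adipose triglyceride lipase (ATGL) cleaves triglyceride, later lipases cleave diacylglycerol, and monoacylglycerol lipase cleaves the last fatty acid from glycerol. ATGL is activated by CGI-58 and, in mammals, inhibited by the small proteins G0S2 and HILPDA. In macrophages this cycle stores lipid taken up with engulfed cells, beside the lysosome, which degrades lipid with an acid lipase of its own.

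The set was drawn up as 10 gene symbols, and the rule takes the rows of the deposited count table that carry them as gene names. It found 7 of the 24221 genes in the table: the ATGL gene pnpla2, the monoacylglycerol lipase gene mgll, the ATGL inhibitor gene g0s2, the perilipin gene plin2 and the acyltransferase genes dgat1a, dgat1b and dgat2. The symbols plin3 and abhd5a (the latter for CGI-58) were found only by Ensembl ID, under the table names zgc:77486 and CU856516.1, so their values are given beside the members and are not counted among them. hilpda was not matched and is not analysed here. The symbols were picked from genes whose mutant and sibling counts in this table were already known, so differences of members between the genotypes are a description, with no p-value, and support nothing further.

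RNA came from GFP-positive macrophage-lineage cells sorted from larvae (zebrafish, TL strain) that were 6 days old, with GFP driven by the mpeg promoter in both genotypes. The comparison is of rraga mutants (4 libraries) with their wild-type siblings (4 libraries). rraga encodes RagA, a GTPase through which amino acids activate mTORC1 on the lysosome. All larvae were raised in water with methylene blue and PTU, an inhibitor of pigment formation, and neither the allele nor the number of larvae per library is given in the sources used here. Libraries held 24940664 to 30911560 counts in mutants and 25530526 to 29147340 in siblings, and are called here by the numbers in the column names, 1, 2, 4 and 5. Of 18 macrophage lineage markers all passed the filter on low counts, and together they took 1.15% to 1.47% of mutant counts and 1.09% to 1.33% of sibling counts. Within that sum 8 markers were called lower and 4 higher, among them mpeg1.1, at 65.5 ± 23.7 CPM in mutants and 231 ± 13.2 CPM in siblings, csf1rb (12.6 ± 1.32 and 57.7 ± 10.6 CPM), cd74a (28.4 ± 3.25 and 279 ± 38.2 CPM) and grn1 (2886 ± 2107 and 208 ± 156 CPM). grna, also higher, was the most abundant of the list in mutants (3793 ± 981 and 1431 ± 258 CPM). The other higher markers were spi1b (1428 ± 47.5 and 685 ± 75.8 CPM) and cd68 (1124 ± 504 and 462 ± 252 CPM). The other lower ones were lcp1, spi1a, cybb, cd74b and irf8. csf1ra, mfap4, marco, ptprc, mpeg1.2 and coro1a were not called. Of all tested genes 13.9% were called lower and 14.5% higher. The marker genes given here and below were named after their values were seen. rraga itself was measured at 199 ± 14.3 CPM (counts scaled to a common library size) in mutants and 129 ± 9.97 CPM in siblings (SD, n = 4; log2 fold change 0.63, adjusted p = 0.00141, edgeR), without overlap of the genotypes. It was thus higher in the libraries labelled mutant, and a transcript level does not check an allele that is not stated.

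Among the 7 members the inhibitor gene fell and the 2 lipase genes rose in the main fit. g0s2 was 17.1-fold lower in mutants, mgll was 3.27-fold higher and pnpla2 was 1.66-fold higher, while the perilipin gene and the 3 acyltransferase genes did not pass the threshold. All 7 members passed the filter on low counts, and by edgeR's quasi-likelihood test over 16086 genes, at an adjusted p under 0.05, 2 were called higher and 1 lower. Of all tested genes 14.5% were called higher and 13.9% lower, 28.4% in either direction, and nothing is read from the members' count, since the same contrast was known when they were picked. In 3 of the 7 members the ranges of mutants and siblings did not overlap, against 31.4% of tested genes. The median log2 fold change of the members was 0.14, against -0.09 for all tested genes. With libraries scaled by size alone 1659 genes were higher and 3123 lower (34.7% of calls higher, against 51.1% with TMM factors), the median of all tested genes moved by -0.17, and pnpla2 was no longer called (log2 fold change 0.55, SE 0.208). Since the samples are bulk RNA, fewer cells of a type and less RNA per cell cannot be told apart.

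**Figure D1:**
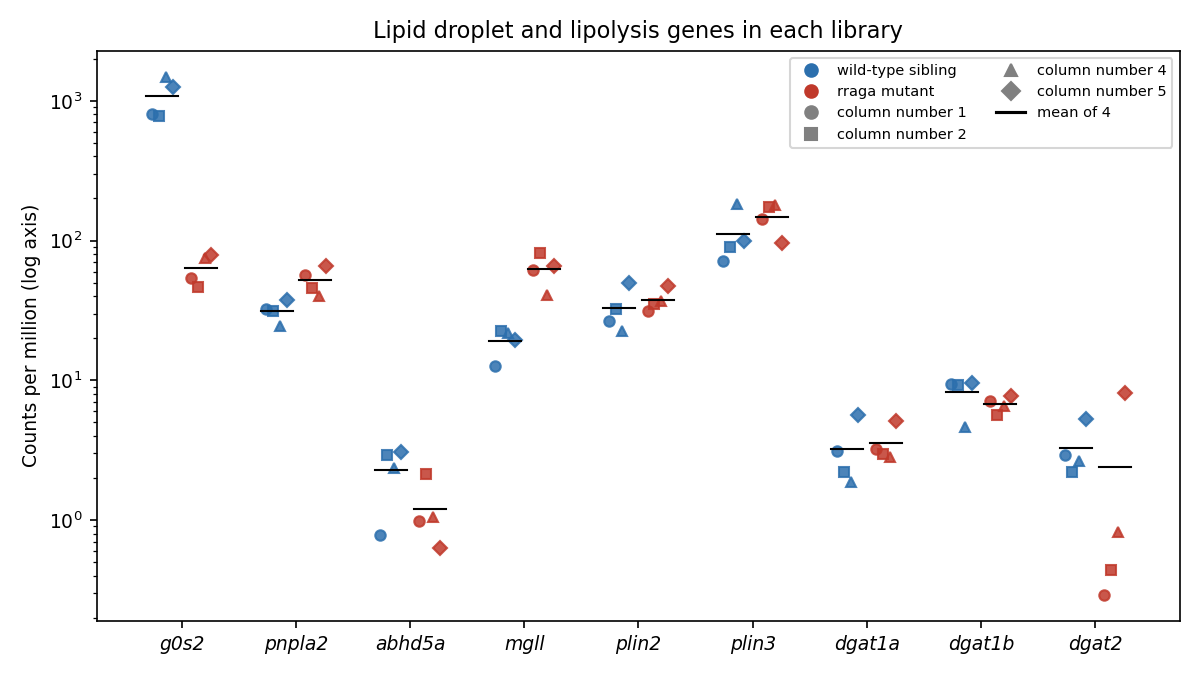
CPM (log axis) of the 7 members and of plin3 and abhd5a in each library, with siblings in blue and mutants in red, point shapes for the column number and black lines for the mean of 4 libraries. The siblings sit above all mutants for g0s2 and below them for mgll and pnpla2, and in dgat2 mutant library 5, at 8.10 CPM, stands apart from the other mutants.

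g0s2 (ENSDARG00000078859, GRCz11 chromosome 23, 39606108 to 39607679) encodes the small protein that in mammals binds ATGL and blocks its activity. It was measured at 809.9, 773, 1488 and 1258 CPM in sibling libraries 1, 2, 4 and 5, and at 54.0, 46.1, 74.7 and 78.6 CPM in the mutant libraries of the same numbers. Every sibling lay above every mutant, and the differences within a column number ran from -4.31 to -3.89 on the log2 scale (CPM with 0.5 added). The means were 1082 ± 349 CPM in siblings and 63.4 ± 15.8 CPM in mutants (SD, n = 4), a fitted log2 fold change of -4.09 (SE 0.282). By size of fall it held rank 28 of the 2233 genes called lower, and rank 2 of the 430 such genes with at least 100 CPM in the mean of a genotype.

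Per kilobase of gene length, g0s2 was among the abundant transcripts of sibling cells. At 1353 ± 436 RPKM (CPM divided by gene length in kilobases) it held rank 36 of the 24221 genes in siblings, and at 79.2 ± 19.7 RPKM rank 1102 in mutants. In RPKM it remained the highest of the set in mutants, without overlap with plin3, the next in order. In CPM the mutant means were 148 ± 38.2 for plin3 and 63.4 ± 15.8 for g0s2. The fall rested on deep counts, 22743 to 38333 reads per sibling library and 1052 to 2368 per mutant library. Its log2 fold change stayed between -4.25 and -3.90 over 17 alternative settings and was called in each of them.

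Marker transcripts of other cell types, and other transcript groups, also differed between the genotypes, and their part in the level of g0s2 was not tested. The counts of markers called stand beside 13.9% lower and 14.5% higher among all tested genes. Of 20 immediate early genes, a list added after the data were seen, 14 were lower and 2 higher, and they took 0.717% to 0.850% of mutant counts against 1.42% to 1.502% of sibling counts. The shares of 4 marker lists were lower in every mutant than in every sibling. For enterocytes (9 of 13 tested markers lower, 0 higher) the share was 0.00135% to 0.0147% in mutants and 0.0409% to 0.0746% in siblings. For keratinocytes (4 of 12 lower, 0 higher) it was 0.0296% to 0.0715% and 0.0897% to 0.180%, and for the yolk syncytial layer (2 of 7 lower, 0 higher) 0.00901% to 0.0281% and 0.0420% to 0.100%. The yolk list shares apobb.1, counted as lower in both, with the enterocyte list, and apoa1b and ttr with the hepatocyte list. For adipocytes the share was 0.0755% to 0.105% and 0.135% to 0.225%, with 2 of 4 tested markers lower (fabp11a and lepb) and 1 higher (cidec). Most of that share was fabp11a, at 977 ± 133 CPM in mutants and 1705 ± 465 CPM in siblings, while plin1, for the perilipin of fat cells, had 0 to 2 and 2 to 11 counts per library and the adiponectin gene adipoqa 0 to 3 and 0 to 5. The adipocyte share of sibling libraries 1, 2, 4 and 5, at 0.148%, 0.135%, 0.225% and 0.216%, had the same order as their g0s2. In the mutant libraries it was 0.0755%, 0.0874%, 0.105% and 0.104%, and its order differed from that of g0s2. Both were higher in mutant libraries 4 and 5 than in 1 and 2. With most of the share in fabp11a, this sets g0s2 beside 1 transcript, and the match was not tested. The shares of hepatocyte, skeletal muscle, erythroid and neutrophil markers overlapped between the genotypes. For skeletal muscle (1 of 15 tested markers lower, 0 higher) the share was 0.0568% to 0.477% in mutants and 0.462% to 0.642% in siblings. Only mutant library 1 reached the range of the siblings. Of 11 tested neutrophil markers 3 were higher and 3 lower, and the summed share was 0.277% to 0.540% in mutants and 0.262% to 0.627% in siblings. The higher were lect2l (1145 ± 345 and 151 ± 42.4 CPM), srgn and the gene listed as si:ch73-54b5.2. The lower were ncf1 (497 ± 59.4 and 673 ± 59.5 CPM) and mmp13a, counted under each of its 2 Ensembl IDs. The more abundant ID of mmp13a was at 232 ± 106 and 706 ± 281 CPM. mpx, mmp9, npsn, il6r and cpa5 were not called.

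pnpla2 (ENSDARG00000089390, chromosome 25, 4541211 to 4574570) encodes ATGL, the lipase that G0S2 inhibits. Sibling libraries 1, 2, 4 and 5 held 32.5, 31.2, 24.3 and 37.7 CPM, and mutant libraries 56.7, 45.6, 40.1 and 66.0 CPM. The genotypes did not overlap, although mutant library 4 lay only just above sibling library 5. The log2 fold change was 0.73 (SE 0.187), with means of 52.1 ± 11.6 against 31.4 ± 5.54 CPM (SD, n = 4). The differences within a column number were alike, from 0.54 to 0.80, and library 4 was the lowest of its genotype in both. Against a minimum fold of 1.5 (glmTreat, edgeR) pnpla2 was not called.

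mgll (ENSDARG00000036820, chromosome 8, 26292560 to 26326501) encodes monoacylglycerol lipase, which completes triglyceride breakdown and also hydrolyses the endocannabinoid 2-arachidonoylglycerol. Its level was 12.7, 22.6, 21.9 and 19.4 CPM in the siblings and 61.2, 82.1, 41.1 and 65.9 CPM in the mutants. The lowest mutant, library 4, lay above the highest sibling, library 2. The means were 62.6 ± 16.9 and 19.2 ± 4.49 CPM (SD, n = 4), with a log2 fold change of 1.71 (SE 0.241). Within column numbers the difference varied more than for pnpla2, from 0.89 for number 4 to 2.22 for number 1. Over the 17 alternatives its log2 fold change lay between 1.53 and 1.87, and it was called in each.

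The CGI-58 gene abhd5a (ENSDARG00000099189, chromosome 16, 7968020 to 7984901) was scarce, with 19 to 93 counts per library. It was at 0.782, 2.92, 2.35 and 3.05 CPM in siblings and 0.986, 2.15, 1.05 and 0.631 CPM in mutants. The genotypes overlapped, because sibling library 1 was nearly as low as the lowest mutant. The log2 fold change of -0.92 had an SE of 0.516 and did not pass the threshold.

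**Figure D2:**
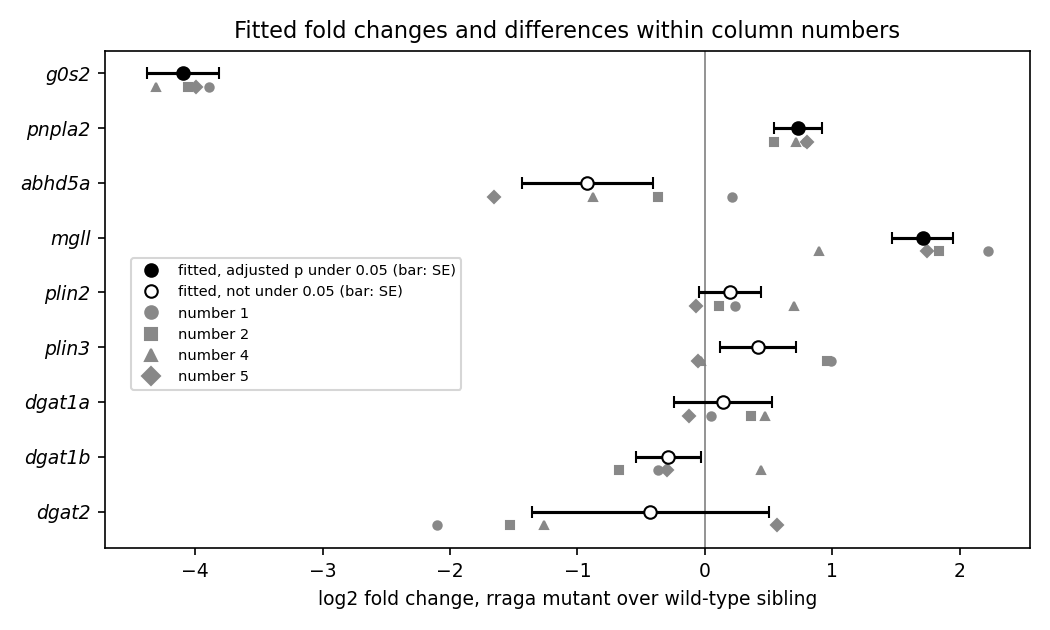
Log2 fold change of mutants over siblings for the same 9 genes, with the value fitted by edgeR and its SE in black (filled where the adjusted p is under 0.05) and, below each, the differences within column numbers 1, 2, 4 and 5 in grey. For g0s2, pnpla2 and mgll all 4 grey points lie on one side of 0, and for dgat2 number 5, at 0.56, lies opposite to the other 3.

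The droplet coat genes plin2 and plin3 did not pass the threshold in the main fit. plin2 (ENSDARG00000042332, chromosome 15, 17030473 to 17048822) encodes the perilipin that coats droplets in most cell types. It stood at 26.6, 32.4, 22.5 and 49.7 CPM in siblings and 31.5, 34.9, 36.8 and 47.3 CPM in mutants, with the mutants inside the range of the siblings. Its log2 fold change was 0.20 (SE 0.242). plin3 (ENSDARG00000013711, chromosome 8, 19268474 to 19280856), which encodes a perilipin that moves from the cytosol to new droplets, was more abundant, at 71.7, 89.6, 183 and 99.4 CPM in siblings and 143, 174, 179 and 95.8 CPM in mutants. Sibling library 4 reached the level of the higher mutants, and mutant library 5 that of the other siblings. The log2 fold change was 0.42 (SE 0.297), not called, and without sibling library 4 it was 0.77 (SE 0.226) and called.

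The DGAT1 genes were low in both genotypes. dgat1a (ENSDARG00000103503, chromosome 19, 1370504 to 1393308) had 3.13, 2.21, 1.88 and 5.61 CPM in siblings and 3.25, 2.98, 2.80 and 5.11 CPM in mutants, with overlapping ranges and library 5 highest in both. Its log2 fold change of 0.14 (SE 0.386) was -0.04 with library sizes alone, -0.05 without mutant library 5 and -0.04 without sibling library 4, and was not called in any of these. dgat1b (ENSDARG00000054914, chromosome 16, 30948451 to 31000727) had 9.36, 9.32, 4.66 and 9.58 CPM in siblings and 7.12, 5.66, 6.50 and 7.71 CPM in mutants. Sibling library 4 lay below all mutants and the other siblings above them. The log2 fold change was -0.29 (SE 0.253). dgat1a and dgat1b are paralogs by name, and reads that could come from either were not tested for, so their separate levels are uncertain. dgat1b also overlaps gstk2 on the opposite strand, which held 0 to 3 counts per library.

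dgat2 (ENSDARG00000018846, chromosome 10, 32501961 to 32524771), for an acyltransferase unrelated in sequence to DGAT1, varied most within a genotype. Siblings were at 2.90, 2.21, 2.66 and 5.32 CPM, and mutants at 0.292, 0.439, 0.818 and 8.10 CPM. Mutant libraries 1, 2 and 4 lay below all siblings, on 8, 10 and 21 counts, and mutant library 5, with 244 counts, lay above all of them. The log2 fold change was -0.43 (SE 0.930), not called, and without mutant library 5 it was -2.61 (SE 0.515) and called lower. In mutant library 5 enterocyte markers, at 0.00135% of counts, and hepatocyte markers, at 0.00726%, were the lowest of the 8 libraries. Adipocyte markers took 0.104% of its counts, keratinocyte markers 0.0561%, skeletal muscle markers 0.276%, neutrophil markers 0.333% and yolk syncytial layer markers 0.00916%. For each of these lists another mutant library was higher. Erythroid markers, at 0.00513%, and immediate early genes, at 0.850%, were at their highest among the mutants. The part of all these lists in the level of dgat2 was not tested.

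The order of levels per length placed g0s2 first in both genotypes. In siblings it was followed by plin3 at 26.8 ± 11.9 RPKM, plin2 at 15.9 ± 5.81 and pnpla2 at 10.7 ± 1.89, whose neighbouring ranges overlapped. Below pnpla2, and without overlap with it, came mgll at 4.23 ± 0.991 RPKM, then dgat1b (2.93 ± 0.848), abhd5a (1.84 ± 0.843), dgat2 (1.41 ± 0.598) and dgat1a (1.18 ± 0.619), each overlapping the next. In mutants mgll reached 13.8 ± 3.73 RPKM and overlapped pnpla2 at 17.7 ± 3.94 and plin2 at 18.3 ± 3.31. It stood clear of dgat1b, the next below at 2.40 ± 0.312 RPKM.

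Ratios between members of the same library do not depend on how libraries are scaled. Per kilobase, g0s2 exceeded pnpla2 by a ratio of 91.3, 90.9, 225 and 122 in sibling libraries 1, 2, 4 and 5, and by 3.49, 3.71, 6.84 and 4.37 in the mutants. Per kilobase the inhibitor transcript therefore stayed above the lipase transcript in all 8 libraries, with mean ratios of 132 ± 63.5 in siblings and 4.605 ± 1.54 in mutants (SD, n = 4). In mutants these ratios lean on the gene lengths, 800 bases for g0s2 and 2935 for pnpla2. In CPM, without lengths, g0s2 was below pnpla2 in mutant library 1 (54.0 against 56.7) and just above it in mutant library 2 (46.1 against 45.6). The ratio of mgll to pnpla2 was 0.410 ± 0.146 in siblings and 0.794 ± 0.249 in mutants, again without overlap. For plin2 to pnpla2 the ratio was 1.46 ± 0.306 against 1.05 ± 0.214, and the ranges overlapped.

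**Figure D3:**
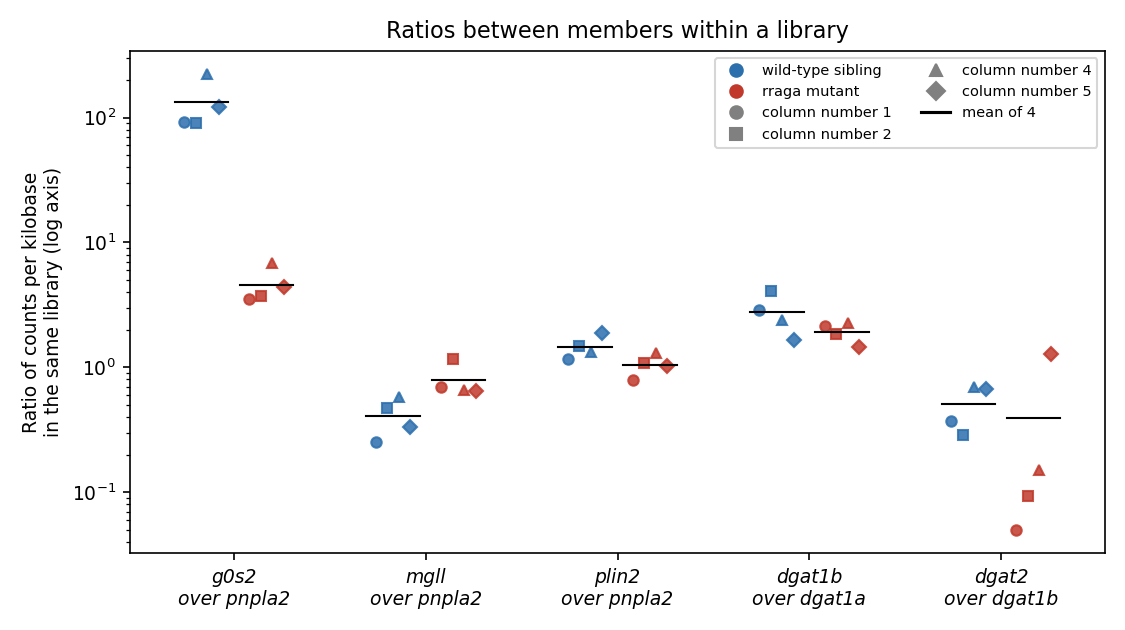
Ratios of counts per kilobase between 2 members in the same library (log axis), with siblings in blue, mutants in red, point shapes for the column number and black lines for the mean of 4. The ratio of g0s2 to pnpla2 is 90.9 to 225 in siblings and 3.49 to 6.84 in mutants, and the ratio of dgat2 to dgat1b is highest in mutant library 5, at 1.27.

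Over all tested genes, deviations from the genotype mean correlated at 0.160 to 0.373 between libraries of the same column number. In 6 of the 7 members the highest mutant and the highest sibling library had the same number. In 5 of them (pnpla2, plin2, dgat1a, dgat1b and dgat2) that number was 5. The matching share of all tested genes was not counted, so nothing is read from this about the members. With replicate number as a block the calls were again 2 members higher and 1 lower.

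Genes of the further lists, which cover lipid metabolism, its regulators and hypoxia-inducible targets, moved in both directions. Together 189 were tested, of which 40 were higher and 28 lower (36.0%, against 28.4% of all tested genes). By list, 57.1% were called in oxidation, 52.6% in glycerolipid and sterol ester synthesis and 37.5% among hypoxia-inducible targets. The shares nearer 28.4% were 31.8% in fatty acid synthesis, 31.6% in uptake and binding, 29.4% among the regulators and 23.8% among the lipases. For droplet assembly and coat it was 6.67%. Of 15 droplet assembly and coat genes 1 was higher and 0 lower: cidec, for a protein that fuses droplets in fat cells, at 5.04 ± 3.40 against 0.732 ± 0.654 CPM (SD, n = 4; log2 fold change 2.78, SE 0.678, adjusted p = 0.0135). The number higher was 2 without mutant library 5 and 3 by DESeq2, and without mutant library 4 the number lower was 1.

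Of 21 further lipase genes 3 were higher and 2 lower. The lysophospholipase gene pnpla6 was at 33.7 ± 3.41 against 8.62 ± 0.474 CPM (log2 fold change 1.97, SE 0.125, adjusted p = 9.8e-06), and the endothelial lipase gene lipg at 60.4 ± 15.3 against 18.3 ± 5.88 CPM (1.73, SE 0.258, adjusted p = 0.0012). The phosphatidylserine lipase gene abhd16a rose by 1.05 (SE 0.115, adjusted p = 2.2e-04). The 2 lower calls became 0 without mutant library 2 or 4 or sibling library 1, and 1 without mutant library 5 or sibling library 2, 4 or 5. Among genes named after their values were seen, the hormone-sensitive lipase genes lipea and lipeb, for the step between ATGL and monoacylglycerol lipase, stood at 16.0 ± 8.43 against 15.4 ± 5.12 CPM and 16.2 ± 5.52 against 12.4 ± 4.51 CPM, and were not called. The gene matched by ID to lysosomal acid lipase, lipa, was at 169 ± 15.0 against 152 ± 12.4 CPM and was not called either.

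**Figure D4:**
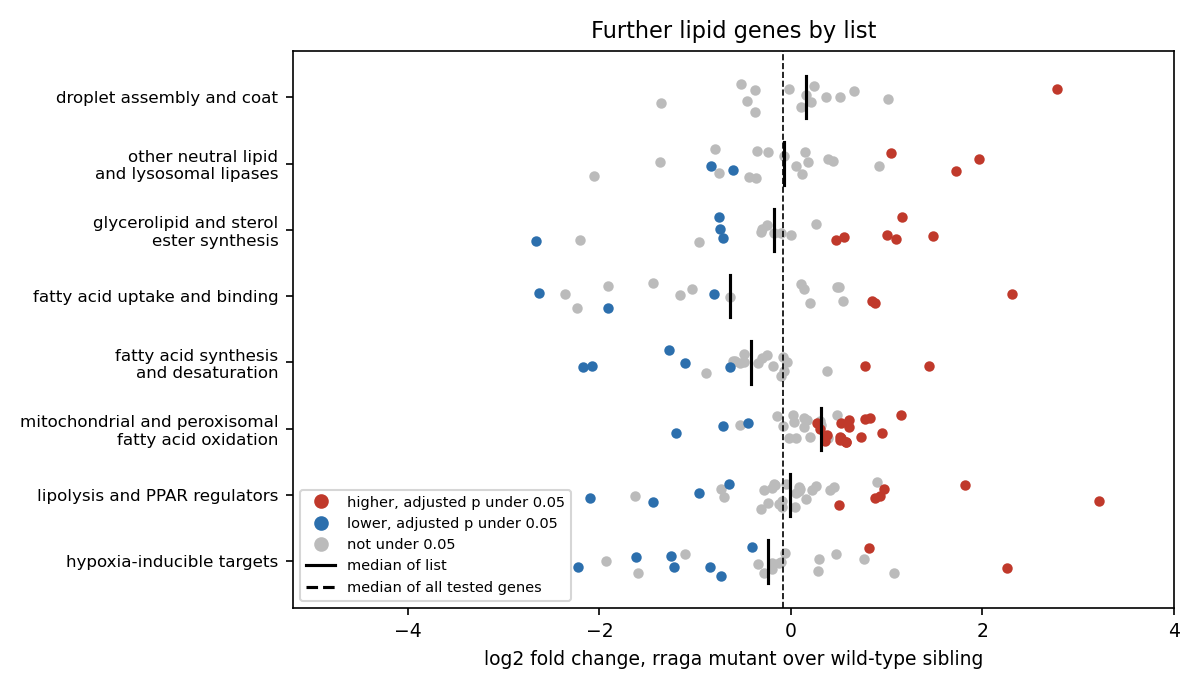
Log2 fold change of mutants over siblings for the tested genes of 8 further lists, 1 point per gene, red where higher and blue where lower at an adjusted p under 0.05, with the median of each list in black and that of all tested genes, -0.09, as a dashed line. The oxidation list has its median at 0.31, and the uptake and binding list at -0.63, which is -0.33 with a filter of 5 CPM in 4 libraries.

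In glycerolipid and sterol ester synthesis 6 of 19 genes were higher and 4 lower. gpat4 and gpat3, for acyltransferases that begin glycerolipid synthesis, were at 57.5 ± 5.06 against 25.7 ± 5.77 CPM (log2 fold change 1.16, SE 0.163, adjusted p = 8.1e-04) and 86.9 ± 11.1 against 40.7 ± 9.16 CPM (1.09, SE 0.178, adjusted p = 0.0019). gpam, for another acyltransferase of this step and named after its values were seen, went the other way. It was at 10.1 ± 2.19 against 16.5 ± 2.18 CPM (-0.71, SE 0.195, adjusted p = 0.0227). agpat3, for a lysophospholipid acyltransferase, fell by 0.74 (SE 0.109, adjusted p = 0.0011) on the log2 scale. Of 22 genes of fatty acid synthesis and desaturation 2 were higher and 5 lower, with the elongase gene elovl1b at 835 ± 75.4 against 489 ± 28.1 CPM (adjusted p = 5.2e-04) and the desaturase gene scdb at 4.42 ± 1.78 against 10.6 ± 1.63 CPM (adjusted p = 0.0117). mid1ip1a, for a regulator of acetyl-CoA carboxylase, was at 5.16 ± 0.873 against 11.1 ± 2.19 CPM (adjusted p = 0.0045). Genes of like name, given after their values were seen, did not share this fall. The more abundant mid1ip1l was called higher, at 443 ± 105 against 163 ± 84.1 CPM (adjusted p = 0.0277). mid1ip1b, at 168 ± 19.6 against 199 ± 35.8 CPM, was not called. The 5 lower calls were 3 without mutant library 2 or 5 or sibling library 2 or 5, and the 2 higher were 1 without mutant library 1 or 5 or sibling library 1.

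Of 19 fatty acid uptake and binding genes 3 were higher and 3 lower. dbi, for the acyl-CoA binding protein, rose to 337 ± 32.7 from 186 ± 20.6 CPM (adjusted p = 6.3e-04), the transporter gene slc27a6 to 9.63 ± 3.40 from 1.94 ± 0.938 CPM (adjusted p = 0.0030) and the binding protein gene fabp7b to 343 ± 22.05 from 187 ± 50.8 CPM (adjusted p = 0.0068). The 3 lower calls were 6 by DESeq2 or with library sizes alone. The median log2 fold change of the list was -0.63, but -0.33 with the filter of 5 CPM in 4 libraries, which left 12 genes, and -0.37 with no filter. The 3 were fabp11a (values above), fabp1b.1 (1.80 ± 1.43 against 11.1 ± 5.09 CPM) and slc27a2a (1.18 ± 0.650 against 4.44 ± 2.79 CPM), named after their values were seen. The part of the enterocyte and adipocyte marker shares, given above, in these falls was not tested.

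Oxidation burns the fatty acids that lipolysis releases. In mitochondrial and peroxisomal oxidation 17 of 35 genes were higher and 3 lower (57.1% called), with a median log2 fold change of 0.31 against -0.09 for all tested genes, and with library sizes alone 12 were higher and the median was 0.15, against -0.26 for all tested genes. etfb, for a subunit of the electron transfer flavoprotein, was at 470.5 ± 31.5 against 211 ± 21.1 CPM (log2 fold change 1.15, SE 0.103, adjusted p = 6.6e-05), and the short-chain dehydrogenase gene acads at 77.8 ± 1.73 against 46.7 ± 2.26 CPM (0.73, SE 0.0881, adjusted p = 3.5e-04). hsd17b4, for a peroxisomal oxidation enzyme, fell by 1.197 on the log2 scale (SE 0.132, adjusted p = 2.2e-04). Against a minimum fold of 1.5 only 2 of the list were higher and 1 lower.

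Of 34 genes of lipolysis and PPAR regulators 6 were higher and 4 lower (7 lower with library sizes alone). The receptor gene pparaa, whose mammalian counterpart activates oxidation genes, was at 18.1 ± 3.18 against 5.15 ± 2.12 CPM (log2 fold change 1.82, SE 0.298, adjusted p = 0.0019), while angptl4, for a secreted inhibitor of lipoprotein lipase, fell by 2.10 (SE 0.335, adjusted p = 0.0016) and the hypoxia-inducible factor gene epas1a by 1.44 (SE 0.159, adjusted p = 2.2e-04) on the log2 scale. Other hypoxia-inducible factor genes of the list, named after their values were seen, were more abundant than epas1a and differed in call. hif1ab, at 469 ± 22.7 against 443 ± 54.0 CPM, was not called, and hif1al was lower, at 233 ± 25.1 against 363 ± 66.2 CPM (adjusted p = 0.0101). Of 24 genes listed as hypoxia-inducible targets 2 were higher and 7 lower (4 and 8 with replicate number as a block). The carbonic anhydrase gene ca9 was at 24.3 ± 4.58 against 5.09 ± 1.204 CPM (adjusted p = 9.8e-05) and the glycolytic regulator gene pfkfb4b at 84.5 ± 13.8 against 197 ± 17.2 CPM (adjusted p = 2.1e-04). The oxygen sensor gene egln2 was at 4.84 ± 1.41 against 22.7 ± 4.44 CPM (adjusted p = 2.6e-04). It is on the list, but whether hypoxia induces it was not examined here.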

How the data were processed

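The authors deposited 1 table with a raw count for each Ensembl gene in each of 8 libraries, per the file headers. The submitters' processing notes list HISAT2 2.0.5, StringTie 1.3.3b, featureCounts 1.5.0 and GRCz11 but no role for any of them. Whether counting used strand is not stated in those sources. Another 16 per-library columns were not used. The table's gene length, another value deposited by the authors, served for RPKM. Columns were tied to a genotype by name, since their numbers differ from those in the sample titles. Deviations from the genotype mean correlated at 0.160 to 0.373 between libraries of the same number (against -0.231 to 0.00133 for different numbers). The numbers were therefore taken as pairs from the data and not from the labels. Centring on the genotype mean lowers the values for different numbers where those for the same number are positive, so this contrast is partly built in. The pairs served for differences within a column number and for the block alternative. The main fit, with its SE and adjusted p, did not use them. Within a genotype, any pair of libraries differed by a chi-square of 50.1 to 104.7 per degree of freedom, so none was another library sequenced again. Separate libraries made from the same RNA cannot be recognised by this check. The labels call the libraries biological replicates, and p-values measure the spread between them only.

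Counts were tested in R 4.3.3 with edgeR 4.0.16 (filterByExpr with a minimum count of 10, TMM factors, quasi-likelihood test without covariates, two-sided, Benjamini-Hochberg adjustment over all 16086 genes that passed, threshold 0.05). CPM and RPKM use TMM-scaled library sizes. Each SE was obtained by dividing the absolute log2 fold change by the root of its F statistic. The procedure was tested on simulated data. Alternatives, 17 in all, were other scalings, filters and tests (DESeq2 1.42.0, limma 3.58.1), replicate number as a block, and each library left out. Symbols absent from the table were sought by Ensembl ID. Members and lists were chosen with earlier results of these data known. Named genes are all members and, per further list, the 3 called genes with the smallest p and at least 5 CPM in the mean of a genotype. Exceptions are stated in the text.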

Additional observations from a re-analysis of the deposited data

Results flagged for a closer look

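Of 82 groups of 4 libraries examined for a library far from the others, 9 held one, and chance gives about 1 in 20. Among the members, dgat1b was at 4.66 CPM in sibling library 4, against 9.32 to 9.58 in the other siblings, and dgat2 at 8.10 CPM in mutant library 5, against 0.292 to 0.818 in the other mutants. In the further lists, gpat3 was at 70.3 CPM in mutant library 5, against 90.8 to 94.2 in the other mutants. In siblings, dbi was at 217 CPM in library 4 (173 to 179 in the others), acads at 50.1 CPM in library 1 (45.4 to 45.9), hsd17b4 at 43.2 CPM in library 1 (34.2 to 35.3) and angptl4 at 163 CPM in library 5 (121.8 to 122.5). Macrophage lineage markers took 1.15% of counts in mutant library 4, against 1.45% to 1.47% in the other mutants, and hepatocyte markers 0.204% in sibling library 2, against 0.0312% to 0.0591% in the other siblings.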

How the results depend on the processing

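Against a minimum fold of 1.5 (glmTreat) 861 genes were higher and 742 lower, and 1 member, mgll, was higher. With library sizes alone 1 member was higher, again mgll. With each library left out in turn, 1 to 2 members were called lower, the second being dgat2 without mutant library 5. With replicate number as a block 2857 genes were higher and 2673 lower, and no member's call changed. g0s2 and mgll were called in the same direction under all 17 alternatives, and pnpla2 under all but the minimum fold and library sizes alone. Counts for the further lists were within 1.5 times the main value in 234 cases and moved further in 38. dgat2, dgat1a and abhd5a rest on few counts, which limits the precision of their differences. DESeq2 gave no call for dgat2, and the stricter filter left out dgat2, dgat1a, abhd5a and cidec.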
